A study of Mus musculus with 12 samples.

Results

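The genes described here code for the secreted and membrane-bound metalloproteases of mouse and for their tissue inhibitors. They were chosen by name alone, as every measured gene whose symbol starts with Mmp, Adam, Adamts or Timp followed by a digit. The rule found 78 of the 19938 genes with a probe set of their own on the array, made up of 22 Mmp genes, 34 Adam genes, 18 Adamts genes and 4 Timp genes. Levels were read on single-colour expression arrays from mouse embryonic fibroblasts (MEFs), connective tissue cells taken from embryos at embryonic day 14 and grown in culture, all of strain C57BL6. The study compared wild-type (WT) cells with D1D2KO cells, which by their label lack Dgat1 and Dgat2, the acyl-CoA:diacylglycerol acyltransferases that make triacylglycerol, the stored fat of the adipocyte. Cells of each genotype were profiled undifferentiated or after differentiation towards adipocytes, with 3 samples in each of the 4 groups and 12 in all. The undifferentiated cells were grown in DMEM with serum. The differentiation medium held dexamethasone at 1 µM, isobutylmethylxanthine at 500 µM, insulin at 5 µg/ml and troglitazone at 15 µM. The labels give no allele for the deleted genes, no length of the treatment, and no word on which samples came from the same embryo or culture. The p-values below therefore measure the spread between these samples, which may be technical, and the small number of arrays limits their precision.

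Matrix metalloproteases cut collagens, proteoglycans and other proteins of the extracellular matrix, ADAM proteases sit in the cell membrane and release the outer parts of membrane proteins, and ADAMTS proteases are secreted enzymes that cut proteoglycans or mature procollagens. Those with protease activity are made as inactive forms that are activated by removal of a propeptide, and the TIMPs block many of the active enzymes by binding their zinc site. Some members, such as Adam22 and Adam23, have no protease activity. A fibroblast that becomes an adipocyte rounds up, exchanges a collagen-rich interstitial matrix for a basement membrane and loses its spread shape, and matrix proteolysis is known to take part in that remodelling.

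A difference is given below on the log2 scale, as differentiated minus undifferentiated or as D1D2KO minus WT, with the standard error of the fit. A gene is called where its adjusted p in limma, with Benjamini-Hochberg adjustment over all 19938 genes, was under 0.05. Dgat1 signal in D1D2KO was 39.4% of WT in the undifferentiated and 38.2% in the differentiated cells, and Dgat2 signal was 72.0% and 31.4%, so each was lower in the samples labelled D1D2KO. Signal was still present there: on differentiation of these samples Dgat1 rose 5.31-fold and Dgat2 8.38-fold, to means of 8.02 and 8.55. Where the probes lie relative to the deleted parts is not given in the sources used here. Differentiated samples held the adipocyte programme in both genotypes: the mean log2 signal of 8 adipocyte markers was 6.46 to 6.58 in undifferentiated and 10.95 to 11.14 in differentiated WT, and 6.21 to 6.31 and 11.21 to 11.48 in D1D2KO. The mean of 8 fibroblast markers was 11.04 to 11.06 and 10.54 to 10.69 in WT and 11.02 to 11.09 and 10.21 to 10.30 in D1D2KO. Macrophage markers were well above the array median in every group, with a mean over 9 genes of 9.51 to 9.55 and 8.32 to 8.58 in WT and 9.43 to 9.46 and 8.23 to 8.33 in D1D2KO, and 8 of the 9 fell on differentiation in each genotype. In such bulk samples, fewer cells of a type and less RNA per cell cannot be told apart.

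The families differed in how many members gave a signal. Of the 78 genes, 28 lay above the median gene on all 12 arrays and 23 (29.5%, against 20.6% of all genes) lay below the lower quartile on all 12. Of these 23, 18 were Adam genes, many of which are known from testis, and 5 were Mmp genes. None of the Adamts or Timp genes was among them. A level that low carries little information on a change, and 34 of the 78 genes were called in no comparison, with differences between -0.20 and 0.30 in WT differentiation and between -0.25 and 0.31 in D1D2KO differentiation. Mmp9, gelatinase B, which is often studied in fat tissue, was one of them. It read 4.28 to 4.64 in undifferentiated and 4.08 to 4.77 in differentiated WT cells, and 4.43 to 4.70 and 4.25 to 4.56 in D1D2KO cells, so its groups overlapped throughout.

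On differentiation, more of these genes fell than rose in both genotypes. In WT cells 23 of the 78 fell and 8 rose, while 34.1% of all genes were called, 19.4% lower and 14.7% higher. In D1D2KO cells 26 fell and 6 rose, while 36.7% of all genes were called, 21.2% lower and 15.4% higher. The median difference over the 78 was -0.07 in WT and -0.11 in D1D2KO, beside 0.02 and 0.01 over all genes. Falls of at least 2-fold were seen for 8 members in WT and 10 in D1D2KO, beside 1.99% and 2.93% of all genes, and rises of that size for 1 and 2 members, beside 2.6% and 3.56%. The genes lower in both genotypes numbered 19, of the 23 in WT and the 26 in D1D2KO, and those higher in both numbered 4, beside 16.5% and 11% of all genes. Samples of the undifferentiated and differentiated groups did not overlap for 40 members in WT and 41 in D1D2KO, which is near the 43.9% and 48.1% found over all genes.

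**Figure D1:**
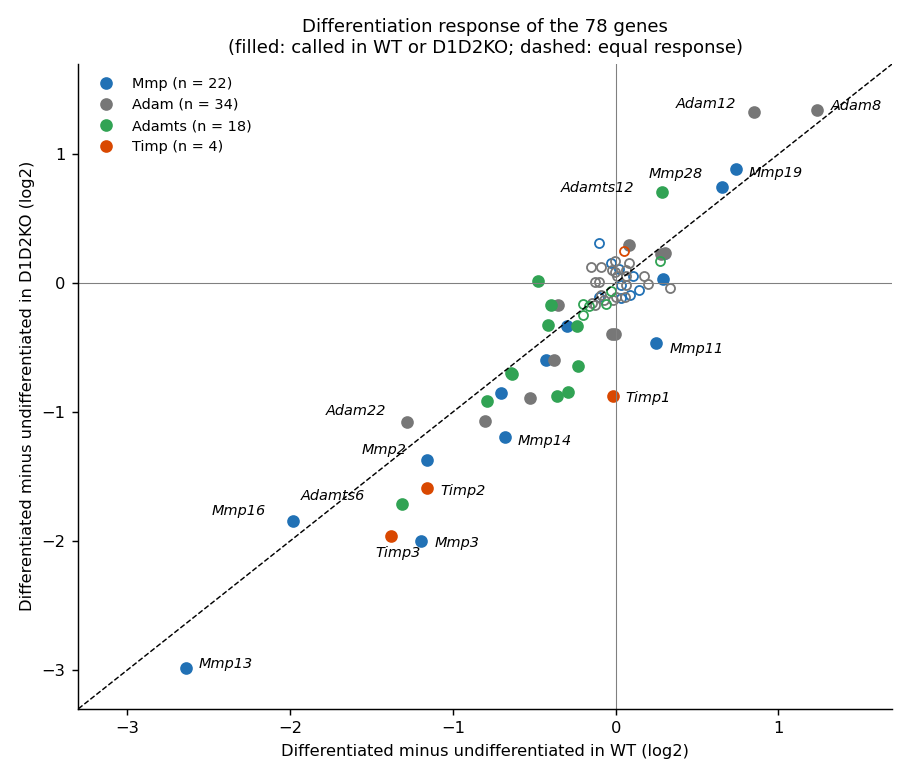
Difference between differentiated and undifferentiated cells (log2) of each of the 78 genes in WT (horizontal axis) and D1D2KO (vertical axis), each the difference of the means of 3 and 3 samples, coloured by family; filled points were called in either genotype, and the dashed line marks an equal response. Most called genes lie in the lower left, led by Mmp13 at -2.64 and -2.98, and Mmp11 alone was called with opposite signs, 0.25 in WT and -0.46 in D1D2KO.

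Mmp13 had the largest fall of all 78 genes in both genotypes. This gene, for collagenase 3, which cuts fibrillar collagen, read 8.54, 8.39 and 8.52 in undifferentiated WT cells and 5.93, 6.20 and 5.40 after differentiation. D1D2KO cells read 8.94, 8.80 and 8.86 before and 5.74, 5.73 and 6.17 after. The 6 undifferentiated samples all lay more than 2 log2 units above the 6 differentiated ones. The fall was -2.64 (SE 0.16, adjusted p = 7.67e-10) in WT and -2.98 (SE 0.16, adjusted p = 1.09e-10) in D1D2KO, 6.24-fold and 7.90-fold. Mmp13 is also made by hypertrophic cartilage and bone cells, and the mean of 8 bone and cartilage markers was 5.58 to 5.63 and 5.31 to 5.36 in WT and 5.55 to 5.68 and 5.38 to 5.52 in D1D2KO. Of these markers, 3 lay below the lower quartile of every array. In WT 2 fell, 1 rose (by 0.31) and 5 were uncalled, and in D1D2KO 3 fell and 5 were uncalled. The share called was 37.5% in each, near that of all genes, and the median difference over the 8 was -0.08 in WT and -0.01 in D1D2KO. Col10a1, the collagen of hypertrophic cartilage, fell from 7.80, 7.80 and 7.63 to 5.83, 5.83 and 5.88 in WT, a difference of -1.90, and from 6.81, 6.66 and 6.73 to 5.43, 5.57 and 5.65 in D1D2KO, a difference of -1.18. The part of these cells in the result was not tested.

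Mmp3, stromelysin 1, which cuts proteoglycans and activates other proenzymes, read 8.24, 8.38 and 8.47 in undifferentiated and 6.90, 7.48 and 7.12 in differentiated WT cells. The D1D2KO samples were at 8.46, 8.41 and 8.33 before and 6.27, 6.47 and 6.46 after. The undifferentiated samples of the genotypes overlapped, and the differentiated D1D2KO samples all lay below the differentiated WT samples. The fall was -1.19 (SE 0.12) in WT and -2.00 (SE 0.12) in D1D2KO. Mmp2, gelatinase A, which cuts denatured collagen and basement membrane, fell by 1.16 (SE 0.11) in WT, from 10.52, 10.43 and 10.47 to 9.45, 9.17 and 9.33. It fell by 1.37 (SE 0.11) in D1D2KO, from 10.67, 10.55 and 10.58 to 9.40, 9.32 and 8.95, and the differentiated samples of the genotypes overlapped.

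Mmp13 and Mmp3 lie in a row of 10 Mmp genes on chromosome 9, unbroken among the protein-coding genes of the RefSeq gene table. The order there is Mmp13, Mmp12, Mmp1b, Mmp3, Mmp1a, Mmp10, Mmp8, Mmp27, Mmp20 and Mmp7. Most of their neighbours were not called. In WT differentiation the other 8 genes were uncalled, with differences from -0.30 to 0.30. In D1D2KO differentiation Mmp8, neutrophil collagenase, also fell, by 0.33 (SE 0.12, adjusted p = 0.036), at a signal of 3.77, 3.49 and 3.34 before and 3.12, 3.14 and 3.33 after, and the other 7 lay between -0.11 and 0.31. The highest of these, Mmp27, was called higher with the replicate number as a block (adjusted p = 0.032). The call on Mmp8 was lost without any one of D1D2KO undifferentiated replicates 1 and 2 or D1D2KO differentiated replicates 1 and 2 (adjusted p up to 0.207).

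**Figure D2:**
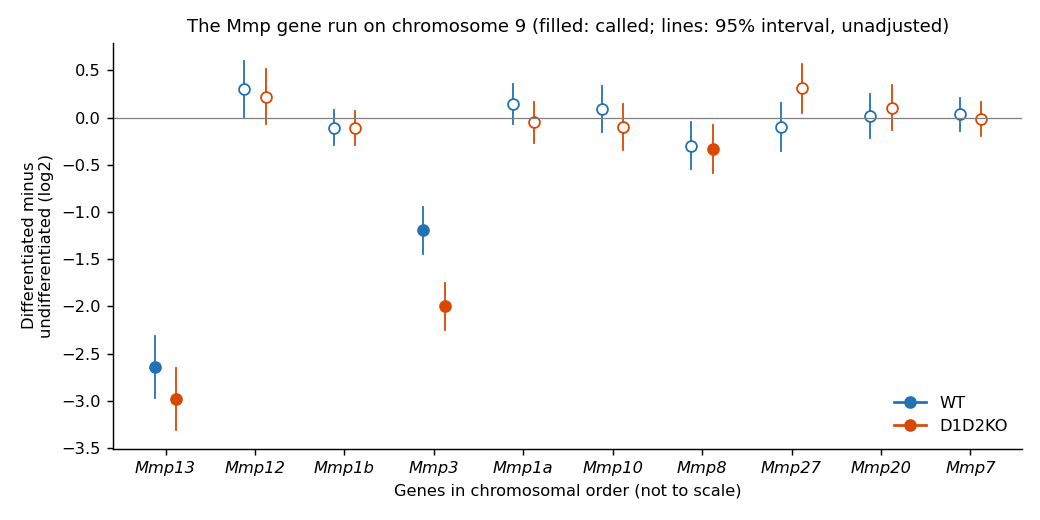
Difference between differentiated and undifferentiated cells (log2, vertical axis) for the 10 Mmp genes of the chromosome 9 row, in chromosomal order and not to scale, in WT and D1D2KO; points are differences of the means of 3 and 3 samples, lines are 95% intervals of the limma fit without adjustment, and filled points were called. Mmp13 and Mmp3 stand below 0 in both genotypes, while the genes between and beside them lie between -0.33 and 0.31.

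The stretches of 150 bases before the RefSeq start of 4 genes of this row, and of Mmp14 as a metalloprotease outside it, are printed because most genes of the row hold the same short spellings in their promoter windows, while few of its genes were called. Capitals mark matches on either strand to TGANTCA, a spelling of the site bound by the Fos and Jun factors (AP-1), and to TATAAA, a spelling of the TATA box, and the 2 spellings cannot overlap. All are from RefSeq, build GRCm38.p6, plus strand, at chr9:7272364-7272513 for Mmp13, chr9:7347224-7347373 for Mmp12, chr9:7445672-7445821 for Mmp3, chr9:7502192-7502341 for Mmp10 and chr14:54431448-54431597 for Mmp14.
Mmp13: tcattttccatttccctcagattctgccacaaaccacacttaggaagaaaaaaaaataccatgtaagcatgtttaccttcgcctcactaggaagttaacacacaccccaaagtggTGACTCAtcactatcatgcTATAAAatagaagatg
Mmp12: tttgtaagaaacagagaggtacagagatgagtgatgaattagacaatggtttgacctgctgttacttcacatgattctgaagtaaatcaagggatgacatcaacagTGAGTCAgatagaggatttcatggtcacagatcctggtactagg
Mmp3: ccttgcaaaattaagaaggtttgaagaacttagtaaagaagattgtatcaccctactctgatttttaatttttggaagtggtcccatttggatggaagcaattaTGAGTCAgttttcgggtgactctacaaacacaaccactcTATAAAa
Mmp10: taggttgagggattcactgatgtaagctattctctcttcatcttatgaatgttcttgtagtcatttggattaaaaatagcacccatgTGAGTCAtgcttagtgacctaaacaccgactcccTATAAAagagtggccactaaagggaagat
Mmp14: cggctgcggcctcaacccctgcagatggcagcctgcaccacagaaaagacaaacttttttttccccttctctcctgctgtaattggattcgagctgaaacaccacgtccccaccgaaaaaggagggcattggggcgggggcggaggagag

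Mmp12 had more than 1 RefSeq start, and the stretch printed is from window 2, the only one of its windows with a match. In that window the TATAAA match lay after the start, outside the printed stretch. Mmp8 held TATAAA only, and Mmp27 held neither spelling. The TGANTCA match began 35 bases before the start in Mmp13, 44 in Mmp12, 46 in Mmp3 and 63 in Mmp10. In windows running from 250 bases before to 50 bases after the start, 8 of the 10 genes of the row held TGANTCA and 9 of 10 held TATAAA. A gene was counted where any of its windows held the match. Among the 38 members outside the row that had a promoter entry, 5 (13.2%) held the first and 6 (15.8%) the second. Over all RefSeq promoters of that length, also counted by gene, 8.97% held the first and 15.7% the second. Mmp12, Mmp1b, Mmp1a, Mmp10, Mmp20 and Mmp7, none of them called, also held TGANTCA in a window. Counted by gene, the presence of these letters did not separate called from uncalled genes. Of these, Mmp12, macrophage elastase, was the brightest, at 6.57 to 7.59, and Mmp1a and Mmp1b the dimmest, with no sample above 2.94. Mmp7 read 3.99 to 4.29, Mmp20 4.10 to 4.64 and Mmp10 4.56 to 5.15, beside array lower quartiles of 4.41 to 4.68. Except for Mmp12, which did not hold the match in every window, the missing calls therefore say little. The Mmp14 stretch held neither spelling. A match is a description of letters and not a shown binding site, and 48 of the 78 members had an entry.

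Of the membrane-bound proteases, Mmp14, Mmp16, Mmp17 and Mmp23 fell in both genotypes. Mmp16, the membrane-type protease MT3-MMP, read 7.62, 7.48 and 7.47 in undifferentiated and 5.56, 5.73 and 5.35 in differentiated WT cells, a fall of -1.98 (SE 0.10, adjusted p = 1.44e-10). In D1D2KO it read 7.25, 7.30 and 7.28 before and 5.29, 5.38 and 5.61 after, a fall of -1.85 (SE 0.10). No undifferentiated sample overlapped a differentiated one, and the differentiated samples of the genotypes were intermixed. Mmp14, MT1-MMP, the pericellular collagenase that also activates pro-Mmp2, read 11.13, 11.16 and 11.05 in undifferentiated and 10.43, 10.42 and 10.45 in differentiated WT cells. In D1D2KO it read 11.22, 11.21 and 11.21 before and 10.11, 10.14 and 9.80 after. Its falls of -0.68 (SE 0.09) in WT and -1.20 (SE 0.09) in D1D2KO left the differentiated D1D2KO samples below all differentiated WT samples. Mmp17, a membrane protease held by a lipid anchor, fell by 0.43 and 0.59, and Mmp23 fell by 0.71 and 0.86, in WT and D1D2KO (SE 0.08 for Mmp17 and 0.09 for Mmp23). Mmp24, another membrane-type protease, was uncalled on differentiation, at -0.03 and 0.15.

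A smaller number of Mmp genes rose. Mmp19, a secreted protease of basement membrane proteins, read 7.54, 7.68 and 7.41 in undifferentiated and 8.40, 7.92 and 8.53 in differentiated WT cells, a rise of 0.74 (SE 0.19, adjusted p = 0.0051). The D1D2KO samples read 7.48, 7.41 and 7.11 before and 8.60, 8.35 and 7.71 after, a rise of 0.88 (SE 0.19), with D1D2KO differentiated replicate 3 well below its partners. Mmp28, epilysin, rose from 5.78, 5.84 and 5.87 to 6.58, 6.40 and 6.46 in WT and from 6.18, 6.03 and 6.0 to 7.03, 6.83 and 6.61 in D1D2KO. Its differences were 0.65 and 0.75 (SE 0.10 in each), and no undifferentiated sample overlapped a differentiated one within a genotype. Mmp25, a lipid-anchored protease known from leukocytes, rose by 0.29 in WT (SE 0.09, adjusted p = 0.015) from a signal near the lower quartile, and its difference in D1D2KO was 0.03. That call was lost without WT undifferentiated replicate 2 or WT differentiated replicate 1 (adjusted p up to 0.093).

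**Figure D3:**
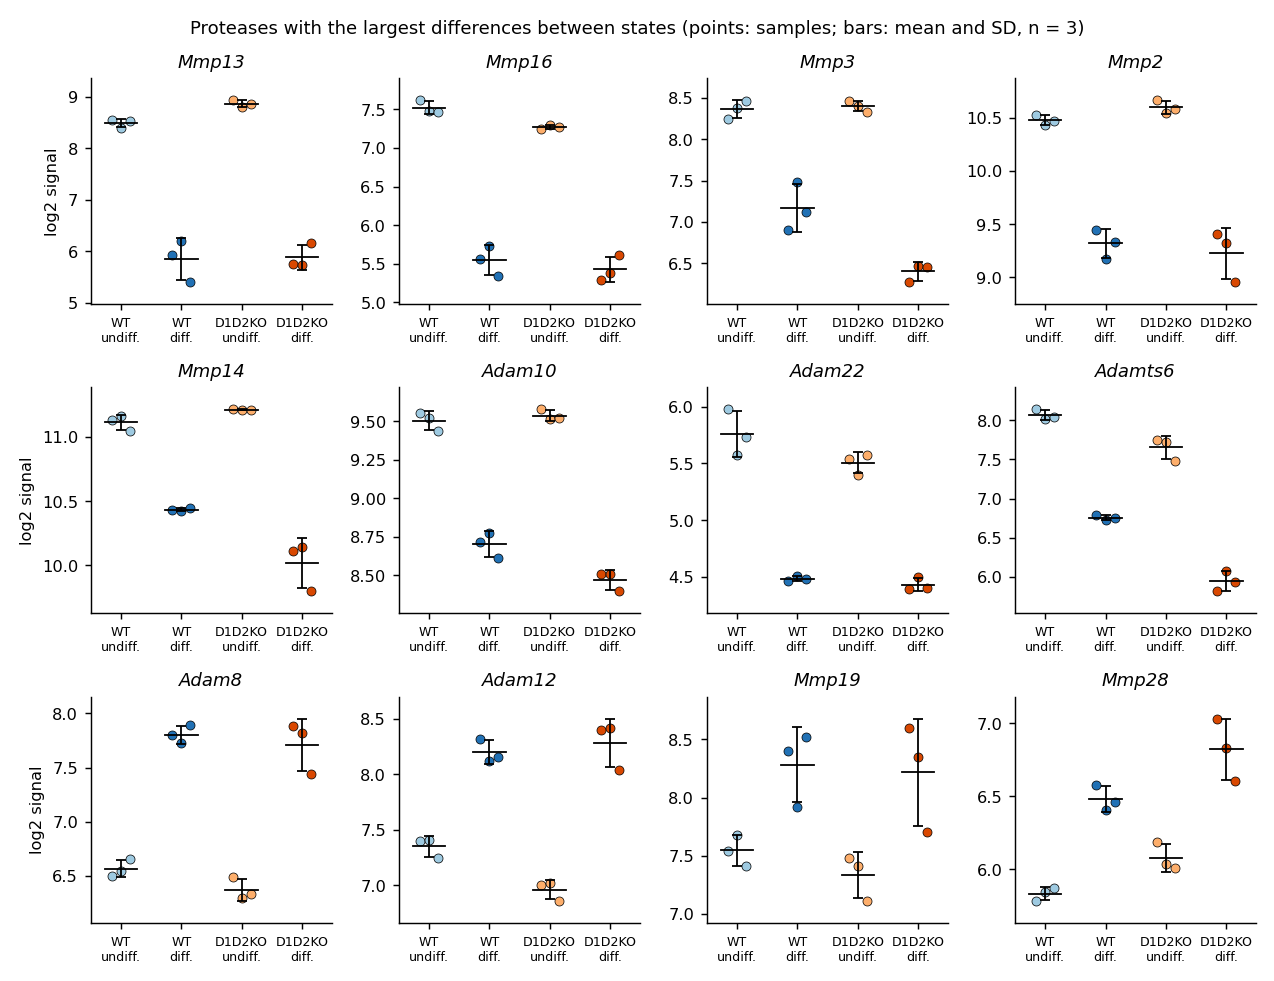
Log2 signal of each sample (points) and group means (horizontal lines, with the SD as error bars) for the proteases with large changes on differentiation, in undifferentiated (undiff.) and differentiated (diff.) WT and D1D2KO cells, 3 samples in each group; the vertical axis differs between panels and does not start at 0. Mmp13, Mmp16, Mmp3, Mmp2 and Adamts6 separate the states with no overlap, and Adam8, Adam12 and Mmp19 run the other way.

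Among the Adam genes, Adam9, Adam10, Adam19 and Adam22 fell in both genotypes. Adam10, which releases Notch, N-cadherin and many other membrane proteins, read 9.55, 9.52 and 9.43 in undifferentiated and 8.72, 8.77 and 8.61 in differentiated WT cells. D1D2KO samples read 9.58, 9.51 and 9.52 before and 8.51, 8.51 and 8.39 after, and the undifferentiated samples of the genotypes overlapped. The falls were -0.80 (SE 0.08) and -1.07 (SE 0.08). Adam17, the enzyme that releases tumour necrosis factor and epidermal growth factor receptor ligands, fell by 0.35 in WT (SE 0.11, adjusted p = 0.015), a call lost without WT differentiated replicate 2 (adjusted p = 0.078), and its difference in D1D2KO was -0.17 (SE 0.11, adjusted p = 0.239). Adam9, another widely expressed sheddase, fell by 0.38 and 0.60 (SE 0.08 in each), and Adam19, a sheddase of neuregulins, fell by 0.53 and 0.89 (SE 0.08 in each). Adam22, a member without protease activity that binds LGI proteins in neurons, fell by 1.28 and 1.07 (SE 0.09 in each), from 5.98, 5.58 and 5.73 to 4.46, 4.50 and 4.48 in WT and from 5.54, 5.40 and 5.57 to 4.39, 4.50 and 4.40 in D1D2KO. The differentiated samples of both genotypes thus lay together, between 4.39 and 4.50. Adam15 read 8.16 to 8.44 in all 12 samples and was uncalled in all 5 comparisons. Adam23 and Adam5 fell in D1D2KO, by 0.40 (SE 0.07) and 0.39 (SE 0.08), and were uncalled in WT. Adam5 read 3.25 to 3.78 in all samples, below the lower quartile of every array, where a change carries little information.

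The Adam genes with large rises were Adam8 and Adam12. Adam8, a sheddase known from leukocytes and from tumours, read 6.50, 6.54 and 6.65 in undifferentiated and 7.80, 7.72 and 7.89 in differentiated WT cells. In D1D2KO it read 6.49, 6.29 and 6.33 before and 7.88, 7.82 and 7.44 after. Its rises of 1.24 (SE 0.11) in WT and 1.34 (SE 0.11) in D1D2KO stood beside falls in 8 of 9 macrophage markers in each genotype. Of 9 neutrophil and mast cell markers, S100a9, Camp and S100a8 rose in WT, by 0.59, 0.51 and 0.48, and Camp in D1D2KO, by 0.44. In WT 3 fell and in D1D2KO 1, and the largest change in each genotype was that of Kit, at -1.14 and -0.60. Of these markers, 4 lay below the lower quartile of every array. S100a8 was among them, at 2.97 to 3.36 before and 3.32 to 3.89 after differentiation of WT. The part of such cells in the result was not tested. Adam12, meltrin alpha, long linked to adipogenesis and muscle formation, read 7.40, 7.41 and 7.25 in undifferentiated and 8.32, 8.12 and 8.16 in differentiated WT cells, a rise of 0.85 (SE 0.10). In D1D2KO it read 7.0, 7.02 and 6.86 before and 8.40, 8.42 and 8.04 after, a rise of 1.32 (SE 0.10). The undifferentiated D1D2KO samples were the lowest of all, and after differentiation the genotypes overlapped. The difference between these responses was 0.47 (SE 0.15) with an adjusted p of 0.147 in limma and was not called. Adam4, at 6.54 to 7.02 in all samples, and Adam32, at 3.47 to 4.06, rose by 0.28 and 0.30 in WT, and each call rested on single samples. Dropping any one of replicates 1 and 3 of either WT group ended the call on Adam4 (adjusted p up to 0.134), and dropping undifferentiated replicate 2 or 3, or differentiated replicate 1 or 2, of WT ended that on Adam32 (adjusted p up to 0.096). Adam21, at 4.73 to 5.37, rose by 0.29 in D1D2KO (SE 0.09, adjusted p = 0.016), which was lost without D1D2KO undifferentiated replicate 1 or D1D2KO differentiated replicate 3 (adjusted p up to 0.077).

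Of the 18 members of the Adamts family, 9 fell, none rose and 9 were uncalled in WT. In D1D2KO 8 fell, 1 rose and 9 were uncalled. The shares that fell, 50% and 44.4%, stand beside 19.4% and 21.2% of all genes. Called higher were 14.7% of all genes in WT and 15.4% in D1D2KO. Adamts6 had the largest fall, from 8.14, 8.01 and 8.05 to 6.79, 6.72 and 6.75 in WT and from 7.75, 7.72 and 7.48 to 5.82, 6.07 and 5.93 in D1D2KO. The differences were -1.31 and -1.71 (SE 0.09 in each), the D1D2KO samples were below the WT samples in both states, and no groups overlapped. Adamts10, which is linked to fibrillin microfibrils, fell by 0.64 and 0.71 (SE 0.08 in each). Adamts3, a procollagen N-propeptidase, fell by 0.64 and 0.70 (SE 0.12 in each), and it fell at each of the 16 probe sets that name it. Adamts17 fell by 0.79 and 0.92 (SE 0.10 in each), and its 5 probe sets gave falls from -0.20 to -1.59 in WT. Adamts18 fell by 0.40 in WT (SE 0.10) and Adamts15 by 0.65 in D1D2KO (SE 0.09), each uncalled in the other genotype, at -0.17 and -0.23.

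The aggrecanase-type genes Adamts1 and Adamts5, which cut versican and aggrecan, are neighbours among the protein-coding genes of chromosome 16 and moved alike. Adamts1 read 9.26, 9.24 and 9.25 in undifferentiated and 8.95, 8.88 and 8.84 in differentiated WT cells, and 9.45, 9.40 and 9.48 and then 8.66, 8.56 and 8.50 in D1D2KO. Adamts5 read 9.13, 9.08 and 9.18 and then 8.86, 8.85 and 8.80 in WT, and 9.33, 9.23 and 9.38 and then 8.53, 8.47 and 8.41 in D1D2KO. In both genes the D1D2KO samples were the higher ones before differentiation and the lower ones after it, with no overlap in either state. Only the difference after differentiation was called. Samples of the genotypes did not overlap for 39.3% of all genes before and 30.9% after differentiation. The falls were -0.36 and -0.29 in WT (SE 0.07 and 0.08) and -0.87 and -0.84 in D1D2KO (SE 0.07 and 0.08). Adamts4, another aggrecanase, fell by 0.33 in D1D2KO (SE 0.11, adjusted p = 0.027), a call lost without any one of D1D2KO undifferentiated replicates 1 and 3 or D1D2KO differentiated replicates 2 and 3, and its difference in WT was -0.24. Adamts9 fell by 0.41 in WT (SE 0.13, adjusted p = 0.0185), a call lost without WT undifferentiated replicate 1 or WT differentiated replicate 2 and with the mean of its 6 probe sets (adjusted p up to 0.088), and its difference in D1D2KO was -0.32. Adamts12 rose in D1D2KO, from 7.99, 8.0 and 7.95 to 8.91, 8.80 and 8.34 (0.70, SE 0.12). In WT it read 8.52, 8.47 and 8.53 and then 8.98, 8.61 and 8.79, a difference of 0.28 with an adjusted p of 0.089.

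Of the 4 inhibitors, 2 fell in both genotypes. Timp3, the matrix-bound inhibitor that also blocks Adam17 and several ADAMTS proteases, read 11.49, 11.51 and 11.48 in undifferentiated and 10.09, 10.32 and 9.95 in differentiated WT cells. The D1D2KO values were 11.54, 11.51 and 11.59 before and 9.51, 9.57 and 9.68 after. The undifferentiated samples of both genotypes lay together, between 11.48 and 11.59, and after differentiation each D1D2KO sample was below each WT sample. The fall was -1.38 (SE 0.09, adjusted p = 3.07e-09) in WT and -1.96 (SE 0.09, adjusted p = 2.51e-11) in D1D2KO. Timp2, which takes part with Mmp14 in activating pro-Mmp2, read 10.63, 10.57 and 10.52 and then 9.45, 9.50 and 9.31 in WT, and 10.78, 10.70 and 10.80 and then 9.13, 9.29 and 9.09 in D1D2KO. Its falls of -1.16 and -1.59 (SE 0.08 in each) separated the states in both genotypes.

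Timp1, a secreted inhibitor of most Mmp enzymes, was called in D1D2KO and not in WT. In WT it read 9.70, 9.83 and 9.65 before and 9.51, 10.15 and 9.46 after differentiation, with replicate 2 above and the others below the undifferentiated samples. The difference was -0.02 (SE 0.14, adjusted p = 0.937). In D1D2KO it fell from 9.47, 9.60 and 9.36 to 8.50, 8.66 and 8.64, by 0.88 (SE 0.14, adjusted p = 6.50e-05), and the differentiated D1D2KO samples were the lowest of all. Timp4, an inhibitor known from heart and from fat, read 4.81 to 5.06 and 4.93 to 5.16 in WT and 5.08 to 5.31 and 5.33 to 5.49 in D1D2KO. Its differences on differentiation, 0.05 (adjusted p = 0.739) and 0.25 (adjusted p = 0.054), were not called. With the replicate number as a block, on the assumption that equal numbers pair the D1D2KO samples, the rise of Timp4 in D1D2KO was called (adjusted p = 0.042).

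**Figure D4:**
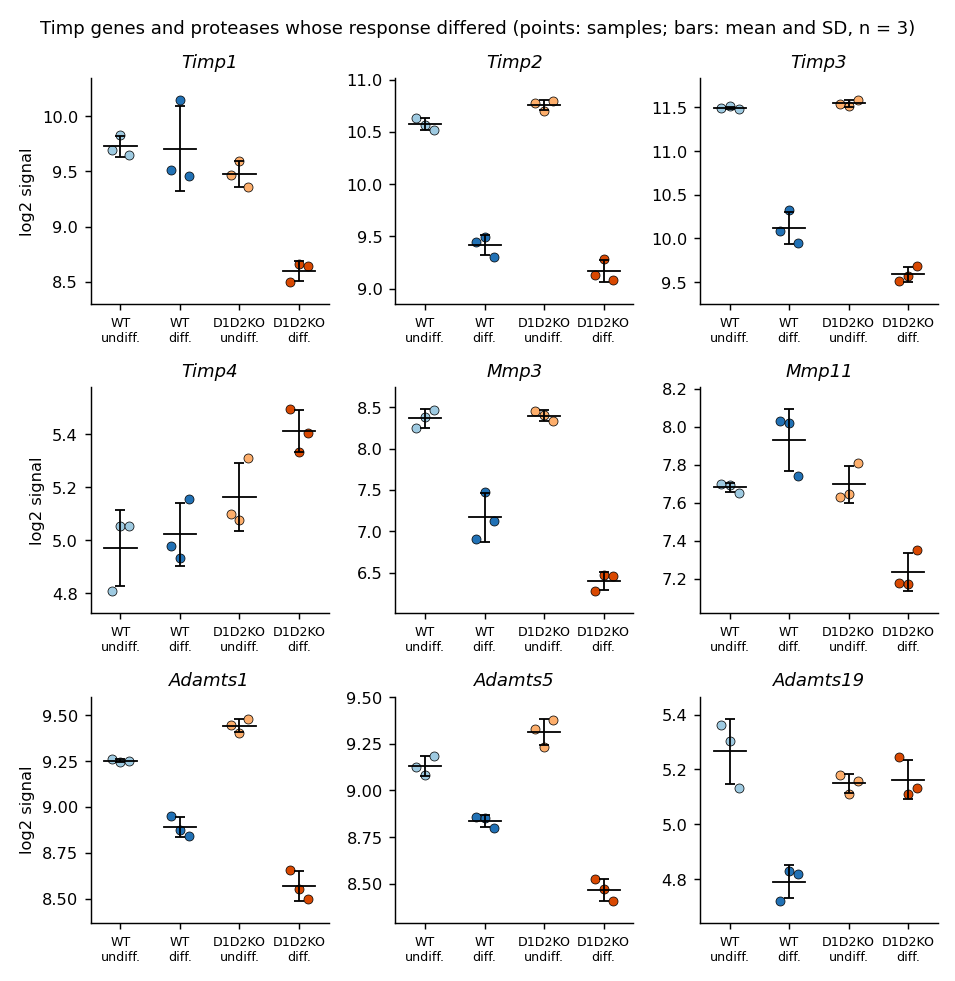
Log2 signal of each sample (points) and group means (horizontal lines, with the SD as error bars) of the 4 Timp genes and of proteases whose response to differentiation differed between the genotypes, in undifferentiated (undiff.) and differentiated (diff.) WT and D1D2KO cells, 3 samples in each group; the vertical axis differs between panels and does not start at 0. Timp2 and Timp3 fall in both genotypes, while Timp1 stays at 9.46 to 10.15 in WT and falls to 8.50 to 8.66 in D1D2KO.

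Between the genotypes, few of these genes differed before differentiation. In undifferentiated cells 4 of the 78 were higher and 4 lower in D1D2KO, while 8.02% of all genes were called, 4.4% higher and 3.62% lower, and samples of the genotypes did not overlap for 36 of 78 members, beside 39.3% of all genes. The lower ones were Adamts12 (-0.53, SE 0.12), Adamts6 (-0.41, SE 0.09), Adam12 (-0.39, SE 0.10) and Adamts10 (-0.32, SE 0.08). The higher ones were Adam34l (0.52, SE 0.13), Mmp25 (0.44, SE 0.09), Mmp21 (0.38, SE 0.10) and Adam23 (0.28, SE 0.07), of which Adam34l, at 3.19 to 3.72 in WT and 3.92 to 4.27 in D1D2KO, and Mmp21, at 3.66 to 3.90 and 4.0 to 4.32, were weak signals. Adam23, a neuronal relative without protease activity, read 7.80 to 7.82 in WT and 8.05 to 8.13 in D1D2KO. Each of these 8 calls was lost under at least one way of processing, and the count fell to 1 without WT undifferentiated replicate 1, WT undifferentiated replicate 2 or D1D2KO undifferentiated replicate 3, and to 2 without D1D2KO undifferentiated replicate 1. Cell-type markers also differed in these samples, in both directions within several lists. Skeletal muscle markers ran from -1.48 (Des) to 0.43, bone and cartilage markers from -1.01 (Col10a1) to 0.30 and endothelial markers from -0.47 to 0.58 (Tek). Each of these 3 lists had 1 marker called lower and 1 higher in D1D2KO. Neutrophil and mast cell markers ran from -0.52 (Kit) to 0.42, with 2 called lower and 2 higher. Of 9 macrophage markers 1 was lower, Itgam by -0.63, and of 8 germ cell markers 1 was higher. Of 8 adipocyte markers 2 were lower, Fabp4 by -1.20 and Adipoq by -0.97, while none of the 8 fibroblast markers was called. The part of any of these markers in these results was not tested. The split of 4 and 4 moved to 2 higher and 5 lower with each array centred on its median and to 4 and 1 with quantile normalization.

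After differentiation the genotypes differed in more of these genes, led by lower Timp1 and lower matrix proteases in D1D2KO. Lower in D1D2KO were 12 members and higher were 7, while 13.7% of all genes were called, 7.42% lower and 6.25% higher. The median over the 78 was 0.03, as over all genes, and samples did not overlap for 30 of 78 members, beside 30.9% of all genes. Timp1 was lower by -1.10 (SE 0.14, adjusted p = 7.60e-05), 2.15-fold, with all 3 D1D2KO samples at or below 8.66 and no WT sample below 9.46. Adamts6 differed by -0.81 (SE 0.09), Mmp3 by -0.77 (SE 0.12), Mmp11 by -0.70 (SE 0.09) and Timp3 by -0.53 (SE 0.09). The remaining lower genes were Adam19 (-0.50), Mmp14 (-0.42), Adamts10 (-0.38), Adamts5 (-0.37), Mmp23 (-0.34), Adamts1 (-0.32) and Adam9 (-0.30). Timp2, at -0.25 (adjusted p = 0.055), and Adam10, at -0.23 (adjusted p = 0.056), missed the call.

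The genes higher in differentiated D1D2KO changed less and were mostly dim. Timp4 differed by 0.39 (SE 0.10, adjusted p = 0.016), Adamts19 by 0.37 (SE 0.08), Mmp28 by 0.34 (SE 0.10), Adam30 by 0.33, Mmp21 by 0.33, Adam21 by 0.30 and Mmp24 by 0.29. Adamts19 read 4.72, 4.83 and 4.82 in differentiated WT and 5.25, 5.11 and 5.13 in differentiated D1D2KO cells. The split of 12 lower and 7 higher moved to 14 and 3 with each array centred on its median and to 12 and 4 with quantile normalization. Of the 19 calls, 10 held under every alternative run: Timp1, Timp3, Mmp3, Mmp11, Mmp14, Adam19, Adamts5, Adamts6, Adamts10 and Adamts19. With only the differentiated groups in the fit 11 members were called, and without WT differentiated replicate 2 or D1D2KO differentiated replicate 1 the count was 12. Those 2 samples each ended the calls on Timp4, Mmp23, Mmp24, Mmp28, Adam30, Adam21 and Mmp21. Single samples that ended others were WT differentiated replicate 3 (Adam9, Mmp21, Mmp24, Mmp28 and Adam21), D1D2KO differentiated replicate 3 (Adam9, Mmp21 and Adam21), WT differentiated replicate 1 (Adam30 and Mmp21) and D1D2KO differentiated replicate 2 (Adam30, Mmp21 and Mmp28). Undifferentiated samples, which enter only through the shared spread, ended the calls on Mmp21 (WT replicates 1 and 3, D1D2KO replicate 1) and Adam21 (WT replicate 1, D1D2KO replicates 1 to 3). Adamts1 was lost only with the differentiated groups fitted alone (adjusted p = 0.066).

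In these same samples 5 of the 8 fibroblast markers were lower and 5 of the 8 adipocyte markers higher in differentiated D1D2KO than WT, by a median of -0.29 and 0.35, and 2 of 9 macrophage markers were lower. Of 6 skeletal muscle markers, Des, Acta1 and Ckm were called; Des, desmin, read 9.17 to 9.38 in WT and 6.70 to 6.97 in D1D2KO, a difference of -2.40, while Acta1 differed by -0.37 and Ckm by 0.29. Of 6 epithelial markers, 2 were lower, Krt14 by -0.53 and Krt8 by -0.30. Col1a1, Col1a2 and Dcn are both fibroblast markers and protease substrates in the lists used here. None of the fibroblast markers was higher and none of the adipocyte markers lower. The part of any of these in the lower protease and inhibitor levels was not tested.

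The response to differentiation itself differed between the genotypes for 7 of the 78 genes, while 1.46% of all genes were called. The difference, as the change in D1D2KO minus the change in WT, was negative for 6, beside 0.712% of all genes, and positive for 1, beside 0.747%. Mmp11, stromelysin 3, read 7.70, 7.69 and 7.65 in undifferentiated and 8.03, 8.02 and 7.74 in differentiated WT cells, and 7.63, 7.65 and 7.81 and then 7.18, 7.17 and 7.35 in D1D2KO. It was thus higher after differentiation in each WT sample and lower in each D1D2KO sample. Its differences were 0.25 in WT (SE 0.09, adjusted p = 0.046) and -0.46 in D1D2KO (SE 0.09, adjusted p = 0.00060), and the difference between the responses was -0.71 (SE 0.13, adjusted p = 0.010). The rise in WT was lost with 9 of the 12 samples left out in turn, all except WT differentiated replicate 3, D1D2KO undifferentiated replicate 3 and D1D2KO differentiated replicate 3 (adjusted p up to 0.159), with only the WT samples in the fit, and with the replicate block.

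The other negative differences were Timp1 at -0.86 (SE 0.20, adjusted p = 0.039), Mmp3 at -0.80 (SE 0.17, adjusted p = 0.022), Timp3 at -0.58 (SE 0.13, adjusted p = 0.034), Adamts5 at -0.55 (SE 0.11, adjusted p = 0.014) and Adamts1 at -0.51 (SE 0.11, adjusted p = 0.020). Adamts19 was the positive one at 0.49 (SE 0.12, adjusted p = 0.044): it fell by 0.48 in WT, from 5.36, 5.30 and 5.13, and read 5.18, 5.11 and 5.16 before and 5.25, 5.11 and 5.13 after in D1D2KO. Mmp11 and Adamts5 were called under every alternative run. The calls on the other 5 were lost without some single samples, 9 of the 12 for Timp1 (all but the WT differentiated ones), 10 for Timp3 (all but WT differentiated replicate 3 and D1D2KO differentiated replicate 3), 9 for Adamts19 (all but WT undifferentiated replicate 3, WT differentiated replicate 3 and D1D2KO differentiated replicate 3), 6 for Adamts1 and 5 for Mmp3, with adjusted p up to 0.128. That on Adamts19 was also lost with a trended prior and with the replicate block. For Mmp3 these were WT undifferentiated replicates 1 and 2, D1D2KO undifferentiated replicates 1 and 2 and D1D2KO differentiated replicate 1, and for Adamts1 they were WT undifferentiated replicates 1 and 2, WT differentiated replicate 1, D1D2KO undifferentiated replicates 1 and 3 and D1D2KO differentiated replicate 2. The lowest count of called members, with one sample left out, was 2. Mmp14, at -0.51, missed the call with an adjusted p of 0.054, and Timp2, at -0.43, with 0.086. Of the 19 genes lower in both genotypes, 17 fell further in D1D2KO, a share of 89.5% beside 68.4% of all genes lower in both, and all 4 genes higher in both rose further in D1D2KO, beside 73.9%.

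A list of regulators, partners and relatives of these proteases held 24 measured genes. Of these, 2 rose and 9 fell in WT, and 4 rose and 12 fell in D1D2KO, with medians of -0.11 and -0.18. The shares called, 45.8% and 66.7%, stand beside 34.1% and 36.7% of all genes, and 13 of the 24 were uncalled in WT. Bsg, basigin, a membrane protein known to induce Mmp expression in neighbouring cells, rose by 0.98 and 1.27 (SE 0.08 in each). Reck, a membrane-anchored Mmp inhibitor, fell by 0.57 and 0.77 (SE 0.08 in each), and Pcsk5, a proprotein convertase, fell by 0.77 and 1.20 (SE 0.07 in each). The ADAMTS-like genes Adamtsl3 and Adamtsl1, which resemble ADAMTS proteins without the protease domain, fell by 1.18 and 1.09 in WT and by 0.94 and 1.20 in D1D2KO. A2m, alpha-2-macroglobulin, a protease trap, was like Timp1 uncalled in WT and lower in D1D2KO: its difference was 0.02 in WT (SE 0.09, adjusted p = 0.897) and -0.94 in D1D2KO (SE 0.09), and the responses differed by -0.96 (SE 0.12, adjusted p = 0.00076). Furin, the convertase that activates Mmp14 and many ADAMs, was lower in differentiated D1D2KO by -0.36 (SE 0.10, adjusted p = 0.023). Tspan14, a partner of Adam10, was uncalled in all 5 comparisons.

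Of 9 plasminogen system genes, 3 rose and 1 fell in WT and 1 rose and 1 fell in D1D2KO, with medians of 0.14 and 0.12. The share called was 44.4% in WT and 22.2% in D1D2KO, near and below that of all genes. Plat, tissue plasminogen activator, fell by 0.77 and 1.14 (SE 0.09 in each) and was lower in differentiated D1D2KO by -0.52. Plau, urokinase, and Plaur, its receptor, were uncalled on differentiation in both genotypes and were lower in differentiated D1D2KO by -0.51 (SE 0.10) and -0.69 (SE 0.11). Plgrkt, a plasminogen receptor, rose by 0.59 and 0.91. Of 12 other matrix proteases, none rose, and 7 fell in WT and 8 in D1D2KO, with medians of -0.37 and -0.53 and 58.3% and 66.7% called. Tll1, a tolloid protease that matures procollagen, fell by 1.03 in WT and 2.06 in D1D2KO (SE 0.09 in each), and the responses differed by -1.04 (SE 0.13, adjusted p = 0.00050). Ctsk, cathepsin K, a lysosomal collagenase, fell by 1.26 and 1.63 (SE 0.09 in each), Dpp4, a membrane dipeptidase, by 0.91 and 1.40, and Fap, a related serine protease of activated fibroblasts, by 0.80 and 1.17. Ctsb, cathepsin B, was uncalled in all 5 comparisons, with differences of 0.03 and -0.03 on differentiation.

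Among the proteins that these enzymes cut, 15 of 21 matrix genes fell in each genotype, while 2 rose in WT and 3 in D1D2KO, with medians of -0.45 and -0.66 and 81.0% and 85.7% called. Thbs2, thrombospondin 2, fell by 1.36 and 1.80 (SE 0.08 in each), Lum, lumican, by 1.33 in each, and Eln, elastin, by 0.99 and 1.20. The genes that rose in WT were the basement membrane collagens Col4a1 (0.94 in WT and 1.02 in D1D2KO) and Col4a2 (0.86 and 0.96). Tnc, tenascin C, read lower in differentiated D1D2KO by -1.37 (SE 0.11, adjusted p = 6.0e-07), and its responses differed by -1.22. Vcan, versican, a substrate of Adamts1 and Adamts5, was uncalled on differentiation, at 0.21 (adjusted p = 0.066) and -0.10 (adjusted p = 0.39). Of 24 membrane proteins released by sheddases, 2 rose and 12 fell in WT, and 1 rose and 14 fell in D1D2KO, with medians of -0.28 and -0.37 and 58.3% and 62.5% called. Nrg1, neuregulin 1, fell by 1.24 and 1.54 (SE 0.10 in each), Cd44, the hyaluronan receptor, by 0.57 and 1.29 (SE 0.10 in each), and Hbegf, a growth factor released by shedding, by 0.69 and 1.22 (SE 0.08 in each). Hbegf and Cd44 were lower in differentiated D1D2KO by -0.90 and -0.87, and their responses differed by -0.52 and -0.72. Between the differentiated genotypes 4 of the 24 were lower and 3 higher in D1D2KO, with a median of -0.07. The share called was 29.2%, beside 13.7% of all genes. Tnfrsf1a, a receptor for tumour necrosis factor that Adam17 releases, was uncalled in all 5 comparisons.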

How the data were processed

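The deposited table holds 1 column of log2 expression values per sample, on a scale found from the values themselves, since the authors' normalization is not given in the sources used here; column medians ran from 5.61 to 5.69. Of 35556 probe sets, 21789 name 1 gene in GEO's platform annotation, 1621 several (not used, 2 of them naming a member) and 12146 none. The probe set of the highest mean was used for each of 19938 genes, and 75 of the 78 members had only 1. Limma 3.58.1 in R 4.3.3 was fitted to the log2 values of all 12 samples with 4 group means and 5 contrasts (lmFit, eBayes, 8 residual degrees of freedom), with Benjamini-Hochberg adjustment over all genes; the code was checked on simulated data. No filter on low values was applied. Members, lists and rules were chosen with earlier results of these data known. Named are every Timp, the 8 largest called rises and falls of each differentiation contrast, every member called between genotypes or responses, 4 bright members uncalled in WT differentiation (Timp1, Adamts12, Adam15, Adam23), and per list up to 4 called and 2 bright uncalled genes; Mmp9, the other falls and further list genes were named after their values were seen. The sample titles number replicates 1 to 3 in each group. Deviations of equal numbers correlated at 0.101 to 0.176 in D1D2KO differentiation, and those of unequal numbers at -0.147 to 0.052. Equal numbers were therefore taken as pairs there, in the runs with the replicate block only, an assumption that the labels do not state. Counts and values given without naming an alternative come from the fit with 4 group means and no pairing. In no other comparison were all 3 pairs above 0.1, though single equal numbers reached 0.184 and unequal ones 0.220. Alternatives were median centring, quantile normalization, genes above the median signal, mean of probe sets, fits of 2 groups, a trended prior, the replicate block, and each sample left out in turn. Promoter windows are from RefSeq (GRCm38.p6), and all 78 gene identifiers were found in its gene table.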

Additional observations from a re-analysis of the deposited data

Results flagged for a closer look

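The change on differentiation differed between WT and D1D2KO by the limma test of that difference itself for 7 of the 78 genes. The difference between responses, as D1D2KO minus WT on the log2 scale, was -0.86 for Timp1, -0.80 for Mmp3, -0.71 for Mmp11, -0.58 for Timp3, -0.55 for Adamts5, -0.51 for Adamts1 and 0.49 for Adamts19. Mmp11 was the gene whose differentiated samples all lay above the undifferentiated ones in WT and all below them in D1D2KO. Adamts1 and Adamts5, which lie side by side among the protein-coding genes of chromosome 16, had nearly the same values in this test. The 2 inhibitors in the list differ in kind: Timp3 fell in both genotypes and further in D1D2KO, while Timp1 was called lower in D1D2KO alone.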

How the results depend on the processing

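The counts of called members were 31 and 32 for differentiation in WT and D1D2KO, and they stayed at 28 to 33 and 30 to 34 with 1 sample left out. The other counts rested more on single samples: leaving out 1 sample gave 1 to 10 called members (8 with all samples) between undifferentiated genotypes, 12 to 19 (19) between differentiated genotypes, and 2 to 8 (7) for the difference between responses. The count between undifferentiated genotypes was 5 with quantile normalization and 5 with only genes above the median signal, and that between differentiated genotypes was 11 with only those groups in the fit; the cause was not tested, beyond the fewer genes and samples these hold. With the replicate number as a block the counts were 32, 34, 11, 21 and 6, and 35 for D1D2KO differentiation with only its own groups in that block fit; the block ended the call on Mmp11 in WT differentiation and on Adamts19 in the difference between responses, and no other call among the members named. The main fit held no pairing. In D1D2KO differentiation, where the block runs took equal numbers as pairs, the block added calls on Timp4 and Mmp27 and ended none. With only its own groups it also added Adam32 (adjusted p = 0.040 in limma). That pairing is an assumption from weak correlations, which the labels do not state. In the 3 comparisons where equal numbers were not taken as pairs, the samples are treated as sharing only a number. The sign turned for 3 uncalled values in WT differentiation: Adam23 was 0.021 with quantile normalization and -0.043 to 0.016 with 1 sample left out, Timp1 was -0.24 to 0.10, and Timp4 was -0.032 to 0.096. Centring or quantile normalization moved the median of all genes by less than 0.1 in every comparison. For arrays, signal over background takes the place of depth, and it limits what a missing call says for the 23 members below the lower quartile of every array.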
